A study of Mus musculus with 6 samples.

Results

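The 8 genes of lipolysis, *Pnpla2*, *Pnpla3*, *Lipe*, *Mgll*, *Abhd5*, *Abhd6*, *G0s2* and *Lipa*, were taken by gene symbol from the 48967 genes with a count row in RNA sequencing of mouse 2-cell embryos. They were chosen for their known roles in the breakdown of stored neutral lipid, with earlier results of these data known. Lipolysis releases fatty acids from the triacylglycerol core of lipid droplets in steps. Adipose triglyceride lipase, encoded by *Pnpla2*, removes the first fatty acid with the help of its coactivator ABHD5 and is held back by the inhibitor G0S2. Hormone-sensitive lipase acts mainly on the diacylglycerol that results, monoacylglycerol lipases finish the reaction, and lysosomal acid lipase carries out a separate route for droplets delivered to lysosomes. Oocytes and early embryos carry lipid droplets of maternal origin.

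The study asked how transcripts responded when droplets were removed from zygotes. All embryos were wild type and came from F1 (C57Bl/10 X CBA/H) females mated with F1 males. They were cultured in vitro from the zygote at 0.5 dpc (days post coitum) to 2.0 dpc in KSOM without fatty acids. In the delipidated group, zygotes had been centrifuged with cytochalasin B and their displaced droplets had been drawn off with a pipette. No centrifugation, cytochalasin B or opening of the zona was described for the control group, so these steps and the loss of lipid cannot be told apart. Each group had 3 libraries, each made from 3 pooled embryos, and the embryos had been allocated at random from 1 common collection, so p-values measure the spread between pools. The values are raw read counts of exonic parts, the pieces into which the exons of a gene are cut so that none overlap. They were summed here per gene, and CPM are these sums scaled to a common library size with TMM factors.

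The depth, as counts assigned to genes, was 12164963 to 16165958 per control library and 14683741 to 20059460 per delipidated library. A read that spanned several parts was counted in each, so the sums appear more precise than the reads behind them. Genes with at least 1 count numbered 20582 to 22855 per control library and 17091 to 20158 per delipidated library, without overlap. The 8 markers of the 2-cell stage summed to 237 to 458 CPM in the controls and 281 to 489 CPM in the delipidated libraries, with none of them at 0 in all libraries. The 12 maternal oocyte markers summed to 976 to 1496 CPM and 1123 to 1698 CPM, which overlapped. The 10 cumulus and granulosa markers summed to 19.9 to 26.5 CPM and 11.3 to 32.6 CPM, with *Foxl2* and *Ptx3* at 0. Of these markers, *Amhr2* had the most counts in every library, at 92 to 385. The 6 adipocyte markers summed to 2.2 to 5.81 CPM and 0.988 to 9.77 CPM, with *Adipoq* at 0 in all libraries. The 6 leukocyte markers summed to 4.42 to 8.86 CPM and 0.346 to 8.82 CPM. The 5 oviduct epithelium markers summed to 82.7 to 227 CPM and 110 to 195 CPM, with *Wfdc2* at 0. Most of this oviduct sum came from *Epcam*, at 978 to 3648 counts per library. The other oviduct markers had at most 189 counts, for *Ovgp1* in delipidated replicate 1. The sum of the 6 stromal markers did not overlap between the groups. It was 5.48 to 9.98 CPM in the controls and 1.93 to 4.10 CPM after delipidation. Of the 6 stromal genes, *Col1a1* alone did not overlap, at 11, 26 and 42 counts in the controls and 0 in each delipidated library. *Pdgfra*, at 30, 83 and 21 against 39, 57 and 4 counts, overlapped. *Dcn* was counted in delipidated replicate 3 alone, at 27. In the other lists, the leukocyte marker *Lyz2* and the adipocyte marker *Cfd* were also at 0 in each delipidated library. They had 2, 8 and 8 counts and 2, 2 and 10 counts in control replicates 1, 2 and 3. No marker was at 0 in each control and counted in each delipidated library. The part of stromal cells, leukocytes or adipocytes in the results below was not tested.

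*Abhd6*, a membrane-bound monoacylglycerol lipase, had the highest level of the set per length of transcript. It stood at 141 ± 42.0 CPM in the controls and 145 ± 4.36 CPM after delipidation (SD, n = 3 each). *Mgll*, the classical monoacylglycerol lipase, was the member with the largest difference, at 5.72 ± 6.24 CPM in the controls and 21.6 ± 6.15 CPM after delipidation, but it did not pass the test adjusted over all genes. *Pnpla2* and *Abhd5* were lower on average after delipidation, within the spread of the libraries. *Pnpla3* and *Lipe* were low in both groups, *Lipa* had counts in 1 library, and *G0s2* had none.

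**Figure D1:**
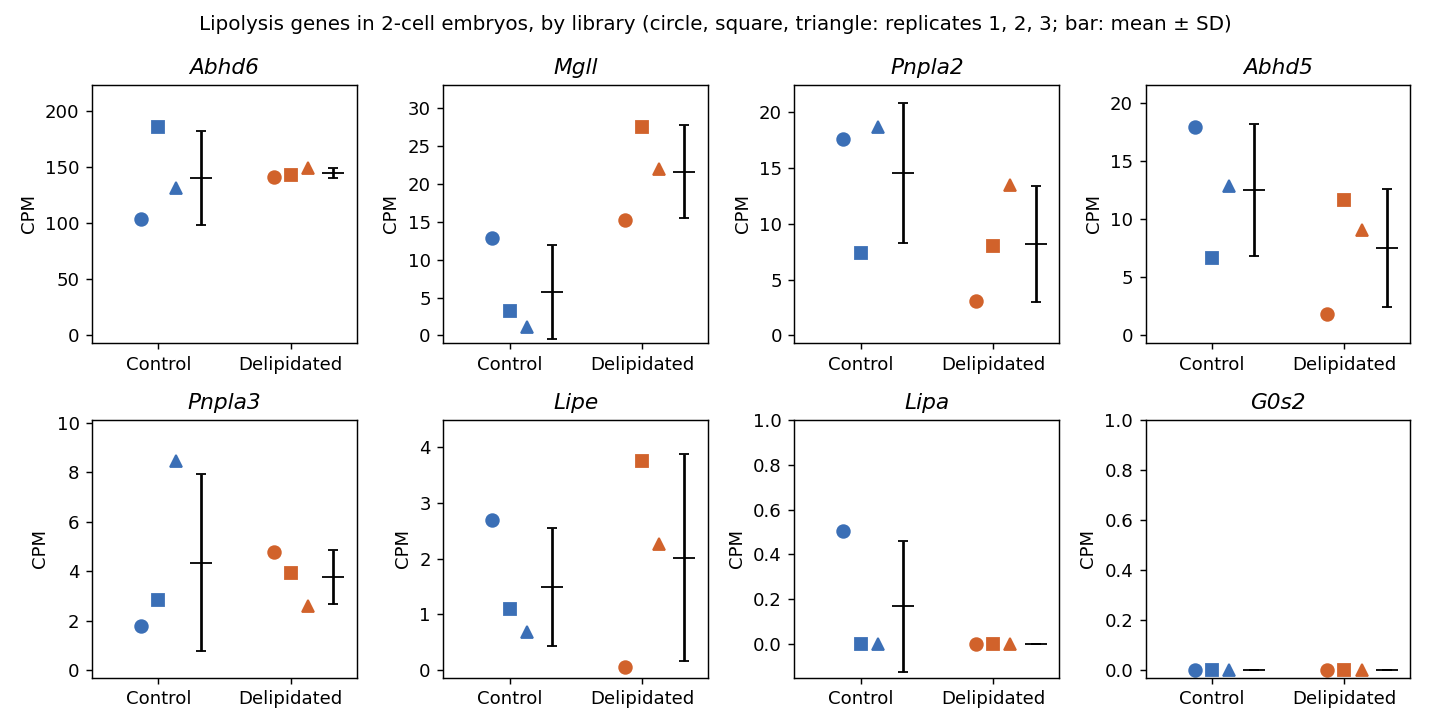
CPM of each lipolysis gene in the 3 control (blue) and 3 delipidated (orange) libraries, with a separate linear axis for each gene; symbols give the replicate number and black bars the mean ± SD. The delipidated libraries lie above all controls for *Mgll* alone, at 15.3 to 27.6 CPM against 1.14 to 12.8 CPM.

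A call needed an adjusted p (Benjamini-Hochberg) under 0.05 and a log2 fold change beyond 1 in edgeR's quasi-likelihood test. Of the 8 genes, 6 had enough counts to be tested and 0 were called, beside 0.0% of the 16020 genes tested in either direction. 2 further fits had no filter on low counts before the fit, though DESeq2 kept its own default filtering of low mean counts. Of all 30967 genes with a count, DESeq2 called 0.0291% higher and 0.129% lower. In the same genes, edgeR called 0.0161% higher and 0.0807% lower, and again 0 of the 8 lipolysis genes were called. The log2 fold change of delipidated over control embryos was positive for 3 of the 6 genes and negative for the other 3. Its median was −0.08 over the 6 genes and 0.00 over all genes tested. At an unadjusted p under 0.05, 1 of the 6 genes was higher after delipidation, beside 1.15% of all genes tested, and none was lower, beside 1.74%. The groups did not overlap in 1 of the 6 genes, which was higher after delipidation, beside 3.81% of all genes tested that were higher without overlap, 5.05% that were lower and 8.86% in both directions together. In these bulk samples, fewer cells with a transcript and less of it per cell cannot be told apart.

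The enzyme that opens lipolysis was detected in every library. *Pnpla2* (ENSMUSG00000025509, chr7:141455198-141460743, plus strand, GRCm38) had 17.6, 7.38 and 18.6 CPM in control replicates 1, 2 and 3 and 3.06, 7.99 and 13.5 CPM in delipidated replicates 1, 2 and 3. Delipidated replicate 1 was the lowest of the 6 libraries, and the groups overlapped. The means were 14.5 ± 6.23 CPM and 8.18 ± 5.21 CPM, with a log2 fold change of −0.83 (SE 0.62, 95% interval −2.19 to 0.53) and an unadjusted p of 0.206 in edgeR's test (adjusted p = 1.00). The counts were spread over the coding exons: 19, 12 and 11 of the 24 exonic parts had a count in control replicates 1, 2 and 3, and 4, 11 and 12 in delipidated replicates 1, 2 and 3. The last part, 640 bases at the 3′ end, held 3 counts in control replicate 1 and 0 in the other libraries.

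*Pnpla3*, a close relative of *Pnpla2* that acts on droplet lipids and is best known from liver, stood at 0.876 CPM per kilobase of exonic parts, against 3.76 for *Pnpla2*. *Pnpla3* (ENSMUSG00000041653, chr15:84167816-84189512, plus strand) had 1.77, 2.84 and 8.44 CPM in the controls and 4.79, 3.93 and 2.61 CPM in the delipidated libraries. Control replicate 3 was the highest and control replicate 1 the lowest, so the delipidated libraries fell within the control range. The log2 fold change was −0.20 (SE 0.82, 95% interval −2.0 to 1.6), with an unadjusted p of 0.810 in edgeR's test (adjusted p = 1.00). It turned positive, to 0.71, without control replicate 3. With 21 to 111 summed counts per library and 3 libraries a group, any difference inside this interval remained compatible with the data.

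The coactivator was also detected in every library. *Abhd5* (ENSMUSG00000032540, chr9:122351608-122381524, plus strand), whose protein binds and activates adipose triglyceride lipase at the droplet, had 18.0, 6.65 and 12.9 CPM in the controls and 1.83, 11.7 and 9.04 CPM in the delipidated libraries. The lowest value was again that of delipidated replicate 1, and the groups overlapped. The means were 12.5 ± 5.67 CPM and 7.51 ± 5.10 CPM, with a log2 fold change of −0.73 (SE 0.69, 95% interval −2.24 to 0.77) and an unadjusted p of 0.308 in edgeR's test (adjusted p = 1.00). Across the 6 libraries, Pearson's r of log2(CPM + 1) between *Pnpla2* and *Abhd5* was 0.90, the highest among the 15 pairs of tested members, and the lowest was −0.55 for *Pnpla3* and *Lipe*. Delipidated replicate 1 was the lowest library for both genes, and within each group the order of the libraries was not the same for the 2 genes. That library also had the fewest genes with a count, 17091, and its correlation with the other libraries across genes was 0.838 to 0.869. These coefficients describe 6 libraries that share embryos of 1 collection and carry no test. Of the *Abhd5* counts, 8.38% lay on the last part, where another gene lies on the other strand, and counts of both strands cannot be separated.

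The inhibitor was not detected. *G0s2* (ENSMUSG00000009633, chr1:193272161-193273217, minus strand), a gene of 2 exonic parts and 871 bases, had 0 counts in all 6 libraries. A count of 0 allows up to 3 counts, or 0.148 to 0.253 CPM depending on the library, for counting error only. Because the gene is short, these limits per kilobase are close to the level of *Lipe*.

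Hormone-sensitive lipase was near the limit of detection. *Lipe* (ENSMUSG00000003123, chr7:25379527-25398710, minus strand) had 2.70, 1.09 and 0.684 CPM in the controls and 0.0494, 3.75 and 2.26 CPM in the delipidated libraries. Delipidated replicate 1 held a single count and delipidated replicate 2 the highest value, so the delipidated group enclosed the controls. The log2 fold change was 0.44 (SE 1.38, 95% interval −2.59 to 3.46), with an unadjusted p of 0.759 in edgeR's test (adjusted p = 1.00). It was −0.37 without delipidated replicate 2. The first 3 of its 25 parts, 21.3% of its length, were at 0 in all libraries, and 3.28% of the 10291 tested genes with at least 10 parts had as large a leading share without counts. Of its counts, 43.8% lay on parts with an annotated gene on the other strand.

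The final step of lipolysis held both the member with the largest difference and the member with the highest level per length. *Mgll* (ENSMUSG00000033174, chr6:88724412-88828360, plus strand) encodes the lipase that splits monoacylglycerol and, in the nervous system, ends the signal of the endocannabinoid 2-arachidonoylglycerol. It had 12.8, 3.21 and 1.14 CPM in control replicates 1, 2 and 3, from 152, 53 and 15 counts. It had 15.3, 27.6 and 22.0 CPM in delipidated replicates 1, 2 and 3, from 310, 449 and 311 counts. Every delipidated library was above every control, with control replicate 1 close to delipidated replicate 1 and the other controls well below. The fitted difference was 3.79-fold (95% interval 1.23 to 11.7), a log2 fold change of 1.92 (SE 0.74). Its unadjusted p in edgeR's test was 0.0245, which ranked 222 among 16020 genes, and its adjusted p was 1.00. A fold change at least as large in this direction was seen for 1.44% of the genes tested. An exact two-sided permutation test of the CPM gave p = 0.1, the smallest that 3 against 3 libraries allow.

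The size of the *Mgll* difference depended on single libraries. Without control replicate 1 the log2 fold change was 3.31, and without control replicate 3 it was 1.43. The unadjusted p in edgeR's test was 0.0892 without control replicate 2, 0.0584 without control replicate 3 and 0.0708 without delipidated replicate 2. It was 0.000897 without control replicate 1, 0.0217 without delipidated replicate 1 and 0.0416 without delipidated replicate 3, by the same edgeR test. The direction was the same in all 15 alternative analyses, and the adjusted p ranged from 0.338 to 1.00 over them. These analyses reused the same libraries. Since every delipidated library was above every control, leaving out 1 library could not reverse the direction.

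**Figure D2:**
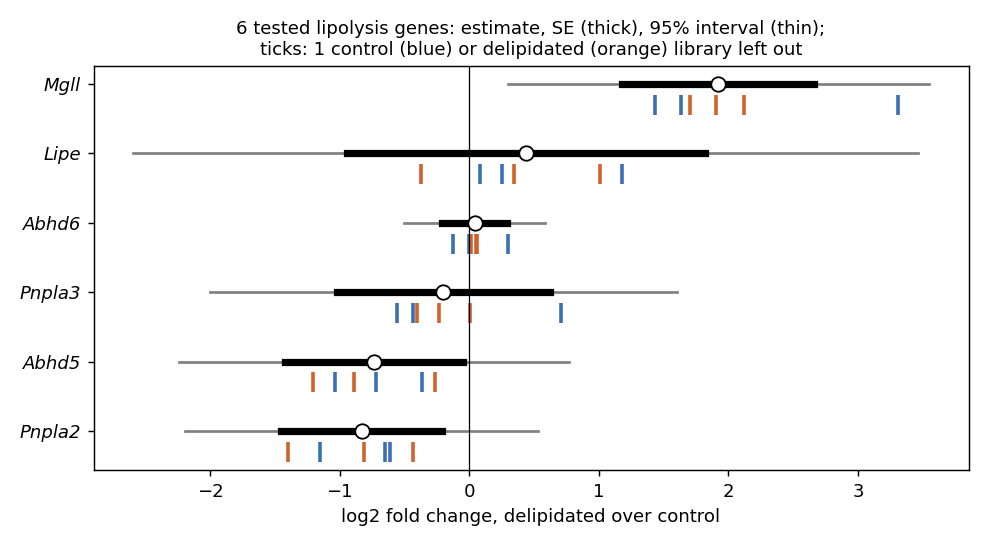
Log2 fold change of delipidated over control embryos for the 6 tested lipolysis genes (open circle), with its SE (thick line) and 95% interval (thin line); blue and orange ticks give the estimate with 1 control or 1 delipidated library left out. The interval of *Mgll*, 0.30 to 3.55, lies above 0, and those of the other 5 genes cross it.

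The *Mgll* counts came from the 3′ portion of the gene. Its first 12 exonic parts, 1668 bases between chr6:88724412 and chr6:88766708 or 32.9% of its exonic length, had 0 counts in all 6 libraries. They hold both annotated start codons of the gene. Among the 10291 tested genes with at least 10 parts, 1.37% had as large a leading share without counts. The exon with the start codon of the transcript read here and the first exon with counts are printed here, from the GENCODE transcripts on GRCm38 and with the plus strand read 5′ to 3′. In exon 2 the start codon is in capitals. In exon 4 the capitals mark codons that read glycine, any residue, serine, any residue, glycine, the pattern around the catalytic serine of such lipases. A search of the coding sequence found it from codon 81 and from codon 120 of 303, and the latter match, which runs on into exon 5, is the one known as the active site.
Mgll exon 2, coding bases, chr6:88725721-88725845: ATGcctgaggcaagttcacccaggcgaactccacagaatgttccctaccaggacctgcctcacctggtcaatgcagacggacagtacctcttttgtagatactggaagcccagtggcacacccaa
Mgll exon 4, chr6:88808011-88808147: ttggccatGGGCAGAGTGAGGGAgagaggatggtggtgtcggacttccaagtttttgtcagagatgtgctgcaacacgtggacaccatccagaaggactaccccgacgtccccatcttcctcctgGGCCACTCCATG

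Exon 2 had no count in any library. Exon 4 had 0 counts in each control library and 38, 11 and 7 counts in delipidated replicates 1, 2 and 3. In delipidated replicate 1, exons 4, 5 and 6 had 38 counts each. From exon 4 to the base before the last part, 12 parts over 1039 bases had 9.11, 2.18 and 0.456 CPM in the controls and 9.68, 13.8 and 11.7 CPM in the delipidated libraries. The last part, 2370 bases at chr6:88825991-88828360, had 3.71, 1.03 and 0.684 CPM in the controls and 5.63, 13.8 and 10.2 CPM in the delipidated libraries. In both stretches, which are pieces of the same *Mgll* counts, the delipidated libraries were above all controls, with ratios of the means of 2.99 and 5.47. Control replicate 3 had counts on 3 of the 25 parts and control replicate 2 on 4, whereas control replicate 1 and the delipidated libraries had counts on 10 or 11.

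*Abhd6* (ENSMUSG00000025277, chr14:8002902-8056555, plus strand) encodes an enzyme that also splits 2-arachidonoylglycerol, together with lysophospholipids, at membranes. It had 104, 186 and 132 CPM in the controls and 142, 143 and 150 CPM in the delipidated libraries. The delipidated libraries lay close together inside the wider range of the controls. The log2 fold change was 0.04 (SE 0.25), and its 95% interval corresponded to between 0.706-fold and 1.50-fold, so larger differences lay outside the interval at this depth. Unlike *Mgll*, its transcript was counted from the start codon onwards: the 2 parts that hold a start codon of the annotation had 146, 203 and 165 counts in control replicates 1, 2 and 3 and 381, 194 and 242 in the delipidated libraries. The first 2 parts, upstream of these, were at 0 except in delipidated replicate 3, with 6 and 1 counts. For comparison with *Mgll*, the exon with the start codon and the exon with the matching serine pattern, from codon 146 of 336, are shown with these positions in capitals.
Abhd6 exon 2, coding bases, chr14:8028271-8028389: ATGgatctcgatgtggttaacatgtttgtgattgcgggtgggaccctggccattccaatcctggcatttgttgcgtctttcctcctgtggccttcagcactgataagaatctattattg
Abhd6 exon 5, chr14:8042694-8042826: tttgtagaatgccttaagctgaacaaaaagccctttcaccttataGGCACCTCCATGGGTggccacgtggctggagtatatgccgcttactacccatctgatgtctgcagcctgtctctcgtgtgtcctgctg

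Exon 5 had 153, 460 and 323 counts in the controls and 467, 282 and 158 in the delipidated libraries, which overlapped.

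**Figure D3:**
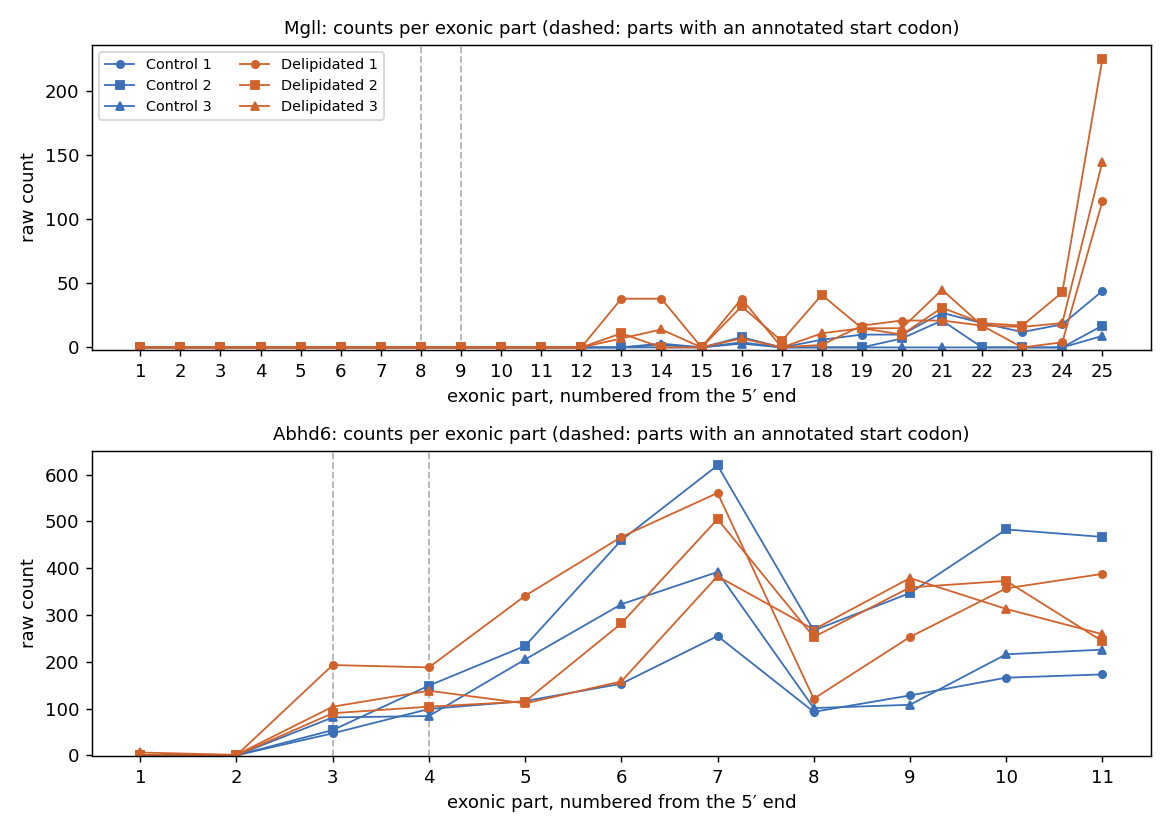
Raw counts of *Mgll* (top) and *Abhd6* (bottom) per exonic part, numbered from the 5′ end, in the 6 libraries; lines join the parts of 1 library and dashed lines mark parts with an annotated start codon. *Mgll* has no counts before part 13 and its highest counts, 225 in delipidated replicate 2, on part 25, whereas *Abhd6* is counted in every library from part 3 on.

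The 250 bases upstream of the most 5′ annotated start of both genes are shown because the exons next to them had few or no counts. They are from RefSeq on GRCm38.p6, plus strand, with matches to any of 4 short motifs in capitals. The E-box was searched as CACGTG, the TATA box as TATAAA, the GC box as GGGCGG and the CCAAT box by the letters of its name, each on both strands.
Mgll upstream, chr6:88724162-88724411: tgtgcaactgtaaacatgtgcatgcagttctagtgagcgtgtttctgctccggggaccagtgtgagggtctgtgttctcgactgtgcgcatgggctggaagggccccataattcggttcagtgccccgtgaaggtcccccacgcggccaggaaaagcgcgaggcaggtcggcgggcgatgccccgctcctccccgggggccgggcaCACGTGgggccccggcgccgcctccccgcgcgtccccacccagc
Abhd6 upstream, chr14:8002638-8002887: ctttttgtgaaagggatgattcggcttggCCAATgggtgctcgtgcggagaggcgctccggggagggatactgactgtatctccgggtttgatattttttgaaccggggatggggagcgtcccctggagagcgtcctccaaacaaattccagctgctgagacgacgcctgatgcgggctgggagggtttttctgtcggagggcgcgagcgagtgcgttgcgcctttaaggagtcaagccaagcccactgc

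The *Mgll* window held 1 E-box, a motif present in 6.02% of the 32851 promoter windows of this length. The *Abhd6* window held 1 CCAAT box, a motif present in 33.8%. Among the other members, the first window of *Lipe* held 1 E-box and 6 GC boxes, and those of *Pnpla2* and *Pnpla3* held 2 GC boxes each, a motif found in 32.7% of all windows. The first windows of *Abhd5* and *G0s2* held 1 GC box each, and those of *Pnpla3* and *Lipa* held 1 CCAAT box each. *Lipa* had the only TATA box of the first windows, a motif found in 12.4%. A match is a description of these letters.

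The lysosomal route was represented by 1 library. *Lipa* (ENSMUSG00000024781, chr19:34492318-34527474, minus strand), the lysosomal acid lipase, had 6 counts in control replicate 1, from 3 counts on each of 2 parts, and 0 in the other 5 libraries. It was not tested. The 3 counts allowed by a 0 correspond to at most 0.228 CPM in the other controls and 0.212 CPM in the delipidated libraries.

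The order of the levels was read per kilobase of exonic parts, over all 6 libraries. *Abhd6* stood at 66.2 ± 12.4 CPM per kilobase (SD, n = 6), above 95.3% of the tested genes and 17.6 times the next member. *Pnpla2* followed at 3.76 ± 2.06, *Mgll* at 2.69 ± 2.03, *Abhd5* at 1.68 ± 0.930, *Pnpla3* at 0.876 ± 0.515 and *Lipe* at 0.298 ± 0.236 CPM per kilobase. *Lipa* stood at 0.0284 CPM per kilobase, from its single library with counts. The range of *Abhd6*, 48.1 to 86.4 CPM per kilobase, did not overlap that of *Pnpla2*, 1.01 to 6.17, and all other neighbours in the order overlapped. By the mean, *Mgll* stood below *Pnpla2* and *Abhd5* in the controls and above both after delipidation. A read was counted in each part it spanned, so genes cut into short parts may stand too high on this scale. Counted on the longest part of each gene alone, *Abhd6* stood at 27.0 CPM per kilobase, and *Mgll*, at 2.47, came next and above *Pnpla2*, at 1.75.

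**Figure D4:**
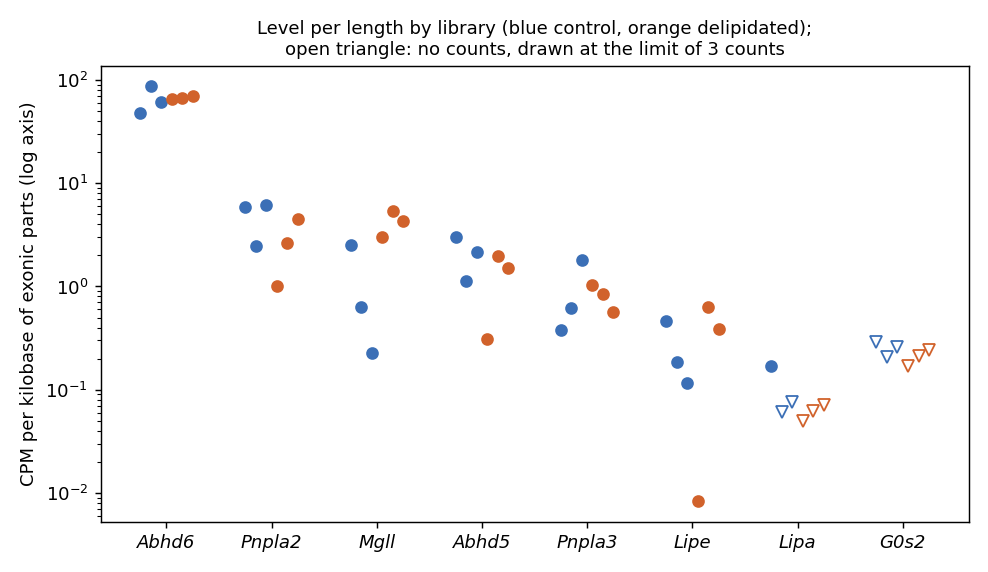
CPM per kilobase of exonic parts (log axis) of the 8 lipolysis genes in control (blue) and delipidated (orange) libraries; open triangles mark libraries with 0 counts, drawn at the limit of 3 counts. *Abhd6*, at 48.1 to 86.4 CPM per kilobase, lies apart from all other members.

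By Pearson's r of log2(CPM + 1) over the 6 libraries, among 10099 tested genes with a mean of at least 5 CPM, the genes most like *Mgll* were *Gm14584* (0.99), *Cdc34* (0.98), *Gm4349* (0.98), *Polr3g* (0.98) and *Eif4enif1* (0.98). The genes most like *Abhd6* were *Zdhhc3* (0.99), *Nmt1* (0.99), *Tsr1* (0.97), *Gpalpp1* (0.97) and *Bid* (0.96). With 6 libraries, such values are reached by many genes: 92 genes exceeded 0.9 with *Mgll* and 45 with *Abhd6*.

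Genes that work beside these enzymes were examined in 5 wider lists, and 0 of their genes were called. Among 25 other lipases and hydrolases, 17 were tested, with 11 positive and 6 negative log2 fold changes and a median of 0.07. In 2 of the 17 the delipidated libraries were above all controls, beside 3.81% of all genes tested, and in 0 they were below all controls, beside 5.05%. *Abhd3*, which acts on phospholipids, had 125, 88 and 100 counts in the controls and 307, 324 and 281 after delipidation. All delipidated libraries were above all controls, at 18.3 ± 2.72 against 7.82 ± 2.62 CPM, with a log2 fold change of 1.23 (SE 0.47) and an unadjusted p of 0.0231 in edgeR's test (adjusted p = 1.00). *Ddhd2*, a triacylglycerol hydrolase best known from brain and named here for its lack of overlap after its values were seen, had 92.0 ± 7.54 and 111 ± 10.1 CPM (log2 fold change 0.27, SE 0.22). The genes of this list with the highest mean CPM, the phospholipases *Ddhd1*, at 529 ± 164 and 536 ± 145 CPM, and *Pnpla8*, at 98.1 ± 12.4 and 124 ± 16.3 CPM, overlapped between the groups.

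Of 14 droplet proteins and other controls of access to adipose triglyceride lipase, 12 were tested, 7 with positive and 5 with negative values and a median of 0.06. *Plin5*, a droplet coat protein of oxidative tissues that binds the lipase and ABHD5, had 6, 50 and 95 counts in the controls and 11, 15 and 0 after delipidation. The groups overlapped, and the log2 fold change was −2.85 (SE 1.49), with an unadjusted p of 0.0808 in edgeR's test (adjusted p = 1.00). *Cideb*, a droplet fusion factor, had 7.16 ± 2.91 and 4.08 ± 0.628 CPM. *Cop1*, a ubiquitin ligase that targets the lipase, had 1064 ± 196 and 1163 ± 21.3 CPM, and *Gbf1*, which serves its delivery to droplets, had 342 ± 111 and 354 ± 118 CPM.

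Of 23 genes of hormone and cAMP control, 20 were tested, 11 with positive and 9 with negative values and a median of 0.03. In 2 of the 20 the delipidated libraries were above all controls, beside the same 3.81% of all genes, and in 0 they were below. The adrenergic receptor gene *Adrb3*, known from fat cells, had 9, 68 and 58 counts in the controls and 315, 28 and 127 after delipidation, with a log2 fold change of 1.50 (SE 0.90) and an unadjusted p of 0.122 in edgeR's test (adjusted p = 1.00). The adenylyl cyclase gene *Adcy6* had 4.87 ± 2.23 and 1.92 ± 2.07 CPM, and both genes overlapped between the groups. *Sirt1*, at 330 ± 21.2 and 301 ± 66.3 CPM, and *Akt1*, at 244 ± 64.6 and 244 ± 64.0 CPM, had the highest mean CPM. *Prkaca*, the catalytic subunit of protein kinase A, at 25.3 ± 6.37 and 34.3 ± 1.83 CPM, and *Prkaa2*, a catalytic subunit of AMPK, at 4.50 ± 1.53 and 7.87 ± 1.79 CPM, were these 2 genes without overlap, and both were named after their values were seen. Their log2 fold changes were 0.44 (SE 0.34) and 0.80 (SE 0.62). *Adrb1*, also chosen after its values were seen, had 0 counts in all libraries.

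Of 14 lysosomal partners of acid lipase, 13 were tested, 6 with positive and 7 with negative values and a median of −0.13. *Rab7*, a regulator of late endosomes, had 454 ± 124 and 546 ± 127 CPM, and the transcription factor gene *Mitf* had 6.61 ± 3.99 and 12.5 ± 4.17 CPM. In both genes the groups overlapped. Of 10 monoacylglycerol and endocannabinoid genes, which include *Mgll* and *Abhd6* and share others with the first list, 7 were tested, 6 with positive and 1 with a negative value and a median of 0.33. *Abhd12*, another hydrolase of monoacylglycerol, had 39.2 ± 6.26 and 53.2 ± 16.4 CPM, and the groups overlapped. The cannabinoid receptor genes *Cnr1* and *Cnr2*, chosen after their values were seen, had too few counts to be tested, with at most 18 and 30 counts in a library.

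**Figure D5:**
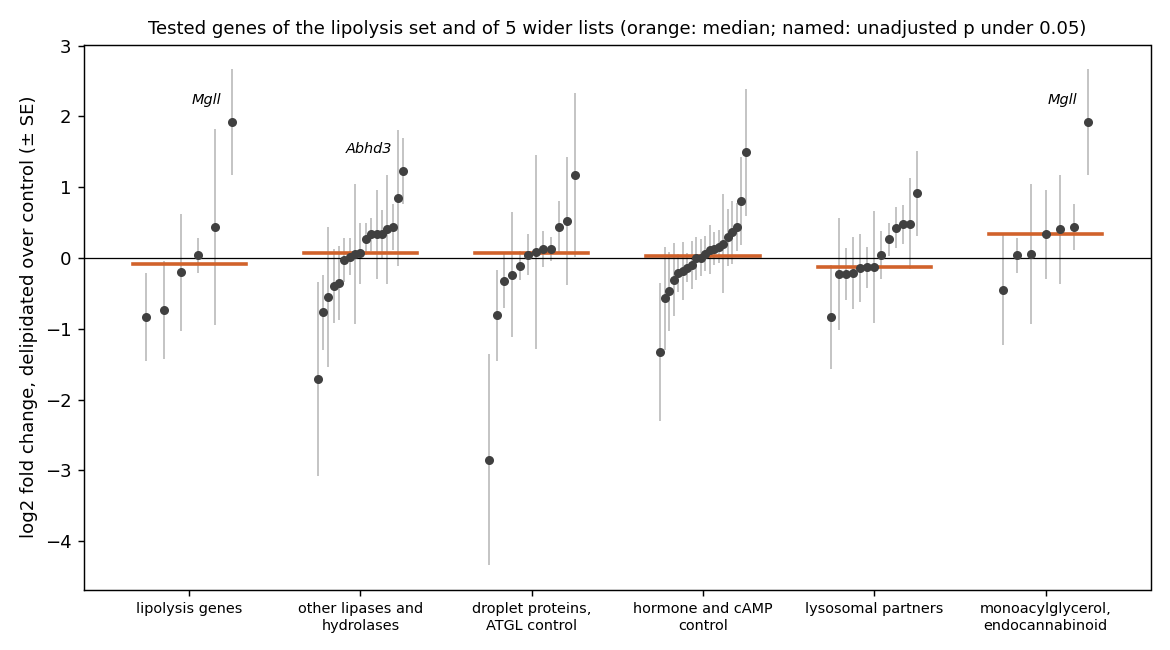
Log2 fold change of delipidated over control embryos (± SE) for each tested gene of the lipolysis set and of the 5 wider lists, with the median of each list in orange; genes with an unadjusted p under 0.05 are named. *Mgll* (1.92) and *Abhd3* (1.23) are the named genes, and the medians lie between −0.13 and 0.33.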

How the data were processed

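RNA was sequenced from 3 control and 3 delipidated pools of 2-cell embryos. The authors trimmed reads with Trimmomatic 0.36, mapped them to mm10 with STAR 2.5.2b and counted unique reads within exons with featureCounts, and the deposited files hold raw counts per exonic part. Of the 425461 parts per library, 33309 carried joined identifiers of overlapping genes, of which 27968 were assigned to 1 gene with GENCODE (GRCm38); the rest, 2.49% to 2.57% of counts, were left out. Sums per gene were tested with edgeR 4.0.16 in R 4.3.3 (filterByExpr, minimum count 10, minimum total count 15, TMM, quasi-likelihood test without covariates, Benjamini-Hochberg adjustment). Motifs were searched in 250 bases upstream of RefSeq starts. The alternatives were DESeq2 1.42.0, its size factors, other filters, limma-voom 3.58.1, other part sets, a replicate block and each library left out. The methods were tested on simulated data. All 8 members were named, with the 2 smallest unadjusted p-values and the 2 highest mean CPM of each wider list. 1 gene that this rule names is not reported here. Further genes named are said to be chosen afterwards. The members and lists were chosen with earlier results of these data known. Counts on strands cannot be separated, and near-identical gene copies are uncertain.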

Additional observations from a re-analysis of the deposited data

How the results depend on the processing

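Calls were 0 in each direction by edgeR with the main filter and in every alternative except the 2 without a filter before the fit. DESeq2, with only its own default filtering, called 9 genes higher and 40 lower, and edgeR without the filter called 5 higher and 25 lower. The median log2 fold change of all genes was then −0.17 and −0.18. At an unadjusted p under 0.05 there were 463 of 16020 genes by edgeR with the filter, and, of 30967 genes without it, 1214 by edgeR and 1341 by DESeq2. The 8 lipolysis genes had 0 calls throughout.

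*Mgll*, *Pnpla2* and *Abhd5* kept their direction in all alternatives that could be fitted, with leave-one-out log2 fold changes of 1.43 to 3.31, −1.40 to −0.44 and −1.20 to −0.27. For *Mgll*, whose groups did not overlap, leaving out 1 library could not have reversed the direction. *Pnpla3* turned positive with the replicate block (0.10), with limma-voom (0.10), on the longest exonic part (0.23) and with single libraries left out (−0.56 to 0.71). *Lipe* turned negative with limma-voom (−0.83) and ranged from −0.37 to 1.18 with single libraries left out. *Abhd6* turned negative on the longest part (−0.21) and ranged from −0.13 to 0.30. The causes were not tested. On the longest part, the level was 27.0 CPM per kilobase for *Abhd6*, 0.339 for *Abhd5* and 0 for *Lipe*. With the length of parts that had a count, an alternative chosen after seeing the data, it was 0.602 for *Lipe* and 0.378 for *Lipa*.

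The replicate block gave 0 calls and a log2 fold change of 2.56 for *Mgll*. Same-numbered libraries correlated in their deviations at −0.25, 0.18 and 0.11, and differently numbered ones at −0.42 to 0.34. Deviations from the mean of 3 libraries depend on each other, so these values cannot decide whether the numbers pair the libraries. *Lipe* under a mean count of at least 50 and on the longest part, and *Abhd5* on the longest part, could not be fitted. Low counts, 3 libraries a group and multiply counted reads limit what could be seen for *Pnpla3*, *Lipe*, *Lipa* and *G0s2*.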
